A study of Mus musculus with 9 samples.

Results

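The genes described here are 7 transcription factor genes of the circadian output and its feedback arm: Dbp, Tef and Hlf, which encode the PAR bZIP factors, Nr1d1 and Nr1d2, which encode the nuclear receptors REV-ERB-alpha and REV-ERB-beta, and Bhlhe40 and Bhlhe41, which encode the repressors DEC1 and DEC2. They were taken by gene symbol from tables of 55536 genes. All 7 were found and all 7 passed the filter on low counts, which left 14384 genes. RNA of muscle from male mice of the outbred ICR stock was sequenced in 3 groups of 3 libraries. Aged GW8510 libraries (numbers 1, 3 and 4) came from mice of 18 months given GW8510, a compound known as an inhibitor of cyclin-dependent kinases, at 2 mg/kg by intraperitoneal injection once daily for 14 days. Aged vehicle libraries (1, 3 and 4) came from mice of 18 months given vehicle, and young vehicle libraries (2, 3 and 4) from mice of 2 months given vehicle. The labels name sodium carboxymethylcellulose as the solvent of GW8510. The labels name neither the muscle nor the hour at which tissue was taken, and do not say that each library is a separate animal, so p-values measure the spread between these libraries, which may be technical. Since the genes are rhythmic, a difference in collection time between groups cannot be told apart from a difference in age or treatment.

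In the mammalian clock the activators BMAL1 (gene Arntl) and CLOCK bind E-box motifs and drive their own repressors as well as output factors. The PAR bZIP factors are such outputs: they bind D-box motifs, where NFIL3 acts as a repressor, and pass the rhythm on to metabolic genes. The REV-ERB receptors recruit the NCOR and HDAC3 corepressors to shut down Arntl, Clock, Npas2 and Nfil3, against the activating ROR receptors, and REV-ERB-alpha is known in muscle for its part in mitochondrial content and endurance. DEC1 and DEC2 bind E-boxes themselves and damp transcription by CLOCK and BMAL1, and Bhlhe40 also responds to hypoxia and other stimuli.

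Sequence before the transcription start is shown for the gene with the greatest difference between ages (Dbp), for Tef, and for the REV-ERB pair, of which Nr1d2 was called between ages and Nr1d1 was not. Each run is the 250 bases before a RefSeq start (GRCm38.p6), 5′ to 3′ in the direction of transcription, with motif matches in capitals.
Dbp, chr7:45704997-45705246, plus strand: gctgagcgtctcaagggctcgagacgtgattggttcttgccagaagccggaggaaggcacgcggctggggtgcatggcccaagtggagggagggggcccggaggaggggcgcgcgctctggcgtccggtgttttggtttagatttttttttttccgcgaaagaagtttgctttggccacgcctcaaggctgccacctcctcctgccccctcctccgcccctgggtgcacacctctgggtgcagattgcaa
Tef, downstream start, chr15:81811164-81811413, plus strand: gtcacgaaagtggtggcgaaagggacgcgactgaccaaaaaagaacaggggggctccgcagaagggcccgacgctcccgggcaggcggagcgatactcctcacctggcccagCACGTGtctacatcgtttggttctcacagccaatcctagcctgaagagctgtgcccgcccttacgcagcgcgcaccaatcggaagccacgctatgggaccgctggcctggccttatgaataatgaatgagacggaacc
Nr1d1, chr11:98775378-98775627, minus strand: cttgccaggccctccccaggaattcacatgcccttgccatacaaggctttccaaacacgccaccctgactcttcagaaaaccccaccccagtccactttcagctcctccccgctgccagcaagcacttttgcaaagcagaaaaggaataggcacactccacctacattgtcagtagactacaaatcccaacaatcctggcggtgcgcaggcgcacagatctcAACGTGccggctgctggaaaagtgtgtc
Nr1d2, chr14:18239107-18239356, minus strand: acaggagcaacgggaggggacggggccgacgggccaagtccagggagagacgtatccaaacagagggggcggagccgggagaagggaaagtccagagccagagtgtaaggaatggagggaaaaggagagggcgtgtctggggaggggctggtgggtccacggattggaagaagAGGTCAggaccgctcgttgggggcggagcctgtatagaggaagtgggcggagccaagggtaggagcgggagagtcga
The letters searched, on both strands, were the E-box CACGTG, its variant CACGTT, the D-box forms TTATGTAA and TTACGTAA, and the nuclear receptor half-site AGGTCA. In windows of 250 bases before to 50 after the start, these were present in 7.15%, 4.685%, 0.938%, 0.119% and 16.3% of 32851 listed promoters. RefSeq listed promoters for 6 of the 7 genes, all but Bhlhe40, and 2 for Tef. CACGTG stood in both Tef promoters, beginning 127 bases before the upstream start and 138 before the downstream one, and in that of Bhlhe41, beginning 153 bases before the start. Nr1d1 held the variant, read on the opposite strand, 28 bases before its start, and Nr1d2 held the half-site 77 bases before. Dbp and Hlf held none of these letters in the window, and no match overlapped another. For Dbp the best described E-boxes lie in introns, outside the window.

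Dbp (ENSMUSG00000059824, chromosome 7 from 45705088 to 45710203, plus strand, GRCm38) encodes the D-box binding protein, the PAR bZIP factor with the steepest daily rhythm. It measured 183, 160.2 and 125 CPM (counts relative to the TMM-scaled library total) in aged GW8510 libraries 1, 3 and 4. The aged vehicle libraries 1, 3 and 4 measured 142, 125 and 21.2 CPM, and the young vehicle libraries 2, 3 and 4 measured 8.75, 9.77 and 10.1 CPM. Every aged library therefore lay above every young library, with aged vehicle library 4 far below the other aged ones and closest to the young. Dbp rose 16.4-fold in aged GW8510 over young vehicle muscle, at 156 ± 29.2 and 9.56 ± 0.719 CPM (SD, n = 3 each), a log2 fold change of 4.03 with standard error 0.59 (edgeR with the Benjamini-Hochberg method, adjusted p = 0.0176). In aged vehicle over young vehicle muscle it rose 10.1-fold, at 96.3 ± 65.6 and 9.56 ± 0.719 CPM (log2 fold change 3.33, standard error 0.57, edgeR adjusted p = 0.0308). Without aged vehicle library 4 that log2 fold change was 3.81 (edgeR adjusted p = 2.32e-05).

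Hlf (ENSMUSG00000003949, chromosome 11 from 90336536 to 90390895, minus strand) encodes hepatic leukemia factor, the least abundant PAR bZIP factor here. It measured 14.2, 16.0 and 13.5 CPM in aged GW8510 libraries, 13.9, 10.9 and 4.37 CPM in the aged vehicle group, and 4.86, 5.20 and 5.54 CPM among young vehicle libraries. Aged GW8510 libraries lay above all young ones, whereas aged vehicle library 4 lay below them in CPM. In the authors' deposited TPM, a level per length, aged vehicle library 4 was at 1.22, above the young libraries (1.01 to 1.11). The log2 fold change of aged GW8510 over young vehicle was 1.49 (standard error 0.34) and did not pass (edgeR adjusted p = 0.0725), although it passed in DESeq2 (adjusted p = 0.00198). For aged vehicle over young vehicle it was 0.91 (edgeR adjusted p = 0.198), and without aged vehicle library 4 it was 1.26 and passed (edgeR adjusted p = 0.0181). Without that library the aged GW8510 over young vehicle difference also passed (edgeR adjusted p = 0.00308).

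Tef (ENSMUSG00000022389, chromosome 15 from 81802421 to 81826863, plus strand) encodes thyrotroph embryonic factor, whose rhythm is usually shallower than that of Dbp. Its levels were 241, 239.6 and 262 CPM in aged GW8510, 232, 216 and 239.9 CPM in the aged vehicle group, and 146, 158 and 173 CPM among young vehicle libraries. All 6 aged libraries lay above all 3 young ones, and aged vehicle library 4 held the highest level of its group, unlike for the other 6 genes. The differences were small, at 1.56-fold for aged GW8510 over young vehicle (log2 0.64, 95% interval 0.34 to 0.94, edgeR adjusted p = 0.0642) and 1.44-fold for aged vehicle over young vehicle (log2 0.53, 95% interval 0.23 to 0.83, edgeR adjusted p = 0.0894). Neither passed in edgeR, and both passed in DESeq2 (adjusted p = 0.000595 and 0.00628).

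**Figure D1:**
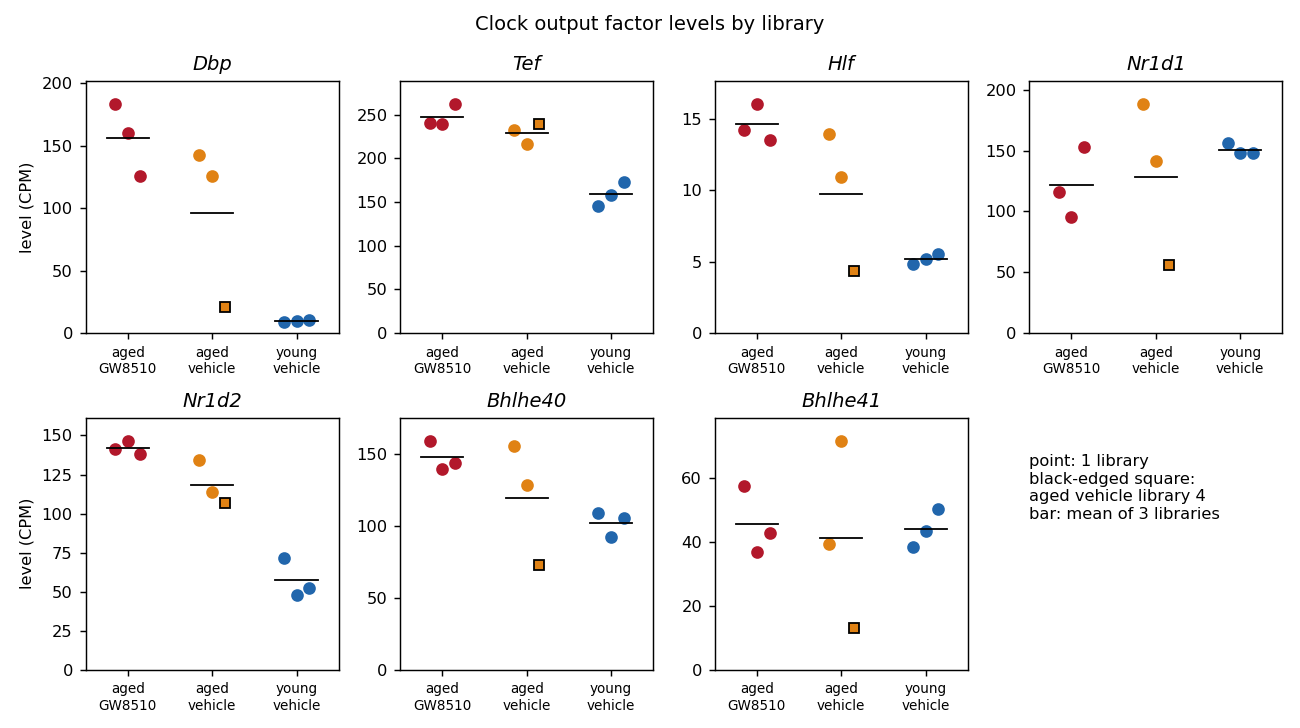
Level of each gene in each library (vertical axis, CPM after TMM scaling, starting at 0) by group (horizontal axis), where points are libraries, bars are means of 3 libraries and the black-edged square is aged vehicle library 4. Dbp, Tef and Nr1d2 separate all aged from all young libraries, and the square is the lowest point of its group for every gene except Tef.

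Of the REV-ERB genes, Nr1d2 passed between ages and Nr1d1 did not, and the difference between them was not tested. Nr1d2 (ENSMUSG00000021775, chromosome 14 from 18204054 to 18239127, minus strand) measured 141, 147 and 138 CPM in aged GW8510, 134, 114 and 107 CPM in the aged vehicle group, and 71.7, 48.2 and 52.2 CPM among young vehicle libraries. In CPM the 3 groups did not overlap, with aged GW8510 highest and young vehicle lowest. In TPM the aged GW8510 (29.4 to 33.1) and aged vehicle (24.7 to 32.0) libraries overlapped. Nr1d2 rose 2.48-fold in aged GW8510 over young vehicle muscle (log2 1.31, standard error 0.18, edgeR adjusted p = 0.0142) and 2.06-fold in aged vehicle over young vehicle muscle (log2 1.04, standard error 0.18, edgeR adjusted p = 0.0306). Without aged vehicle library 4 these log2 fold changes were 1.30 and 1.12, and both passed (edgeR adjusted p = 0.00579 and 0.0279).

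Nr1d1 (ENSMUSG00000020889, chromosome 11 from 98767932 to 98775333, minus strand) measured 116, 95.5 and 153 CPM in aged GW8510, 188, 142 and 55.7 CPM in the aged vehicle group, and 156, 148 and 148 CPM among young vehicle libraries. Its groups overlapped throughout, and the aged vehicle libraries spanned a 3.38-fold range against 1.05-fold in the young. The log2 fold change was -0.31 for aged GW8510 over young vehicle (95% interval -1.12 to 0.49, edgeR adjusted p = 0.704) and -0.23 for aged vehicle over young vehicle (95% interval -1.03 to 0.58, edgeR adjusted p = 0.760). Without aged vehicle library 4 the second value was 0.13. Both intervals exclude a 2-fold rise, and neither excludes a 2-fold fall.

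The DEC genes gave no call in any comparison. Bhlhe40 (ENSMUSG00000030103, chromosome 6 from 108660629 to 108666925, plus strand) measured 159.6, 140.1 and 144 CPM in aged GW8510, 156, 129 and 73.1 CPM in the aged vehicle group, and 109, 92.2 and 105 CPM among young vehicle libraries. The aged GW8510 libraries lay above the young ones, at a log2 fold change of 0.53 (95% interval -0.01 to 1.07, edgeR adjusted p = 0.304), and the aged vehicle libraries lay on both sides of them (log2 0.22, 95% interval -0.32 to 0.76). In TPM the aged GW8510 (44.8 to 51.7) and young vehicle (34.4 to 47.9) libraries overlapped for Bhlhe40. Bhlhe41 (ENSMUSG00000030256, chromosome 6 from 145858243 to 145865558, minus strand) measured 57.6, 36.9 and 42.7 CPM in aged GW8510, 39.5, 71.8 and 13.0 CPM in the aged vehicle group, and 38.5, 43.5 and 50.5 CPM among young vehicle libraries. Its groups overlapped, with log2 fold changes of 0.05 for aged GW8510 over young vehicle (95% interval -0.99 to 1.09) and -0.09 for aged vehicle over young vehicle (95% interval -1.13 to 0.94). Without aged vehicle library 4 the aged vehicle over young vehicle values were 0.48 for Bhlhe40 and 0.33 for Bhlhe41, and neither passed (edgeR adjusted p = 0.174 and 0.607).

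GW8510 treatment of aged mice gave no call among these genes. In aged GW8510 over aged vehicle muscle 0 of 7 passed, where 0% of 14384 genes did (edgeR quasi-likelihood test), and at an unadjusted p under 0.05 there were 0 of the 7 and 4.5% of all genes tested. DESeq2 called 8 genes in this comparison (0.0312% of those it tested) and limma-voom 0, none of them among the 7. Log2 fold changes were 0.70 for Dbp (95% interval -0.45 to 1.85), 0.58 for Hlf (-0.16 to 1.32) and 0.11 for Tef (-0.19 to 0.41). They were 0.26 for Nr1d2 (-0.13 to 0.65), -0.08 for Nr1d1 (-0.89 to 0.72), 0.31 for Bhlhe40 (-0.23 to 0.85) and 0.14 for Bhlhe41 (-0.89 to 1.18). The intervals for Tef, Nr1d2, Nr1d1 and Bhlhe40 exclude a 2-fold change in either direction, and those for Dbp, Hlf and Bhlhe41 do not. Without aged vehicle library 4 the values were 0.21 for Dbp, 0.22 for Hlf, 0.13 for Tef and 0.18 for Nr1d2. They were -0.45 for Nr1d1, 0.04 for Bhlhe40 and -0.29 for Bhlhe41 without it.

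**Figure D2:**
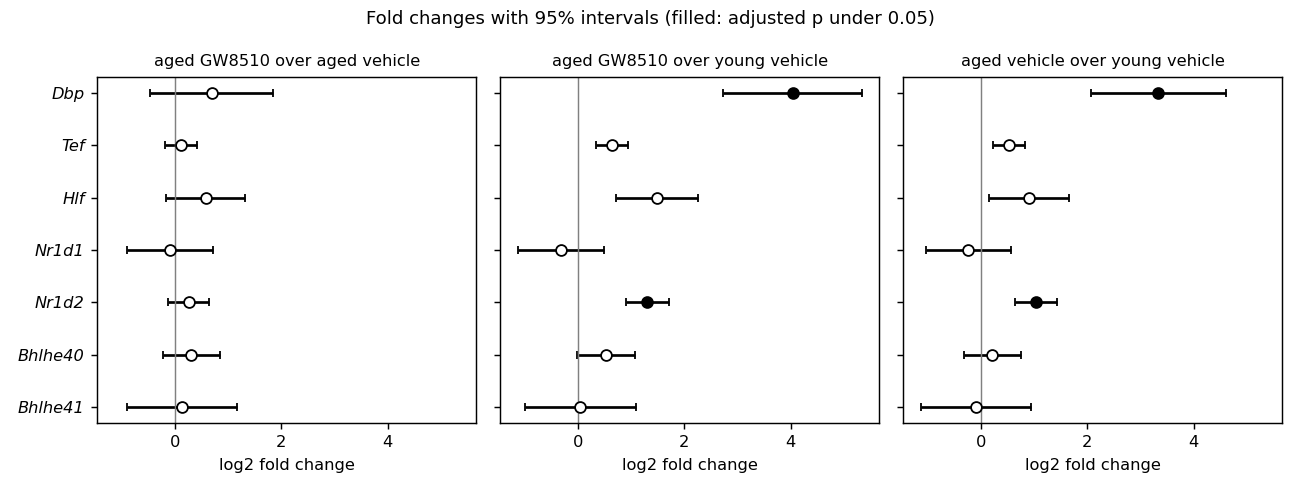
Log2 fold change (horizontal axis) of each gene (vertical axis) in the 3 comparisons, with 95% intervals from the edgeR fit and filled points for adjusted p under 0.05. Dbp and Nr1d2 are filled in both comparisons with young vehicle muscle, and no point is filled for aged GW8510 over aged vehicle.

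Over the 7 genes, 2 were called in aged GW8510 over young vehicle muscle, Dbp and Nr1d2, both higher, where 0.751% of genes tested were called, 0.334% higher and 0.417% lower. The same genes were called in aged vehicle over young vehicle muscle, again both higher, where 1.22% of genes tested were called, 0.521% higher and 0.695% lower. These comparisons share the young libraries. Without aged vehicle library 4 the called members were Dbp, Tef, Hlf and Nr1d2 for aged GW8510 over young vehicle, where 594 of 14842 genes tested (4%) were then called. For aged vehicle over young vehicle they were Dbp, Hlf and Nr1d2, where 143 of 14842 (0.963%) were. DESeq2 called Dbp, Tef, Hlf and Nr1d2 for aged GW8510 over young vehicle and Dbp, Tef and Nr1d2 for aged vehicle over young vehicle, where it called 5.39% and 6.03% of the genes it tested. At an unadjusted p under 0.05 there were 4 of the 7 in each, Dbp, Tef, Hlf and Nr1d2, where 16.7% and 19.2% of genes tested were. Groups without overlap and with the aged group higher were counted in CPM. They numbered 5 of 7 for aged GW8510 over young vehicle (Dbp, Tef, Hlf, Nr1d2 and Bhlhe40), where 12.9% of all genes tested were so placed. For aged vehicle over young vehicle they numbered 3 of 7 (Dbp, Tef and Nr1d2), where 12.7% were. Between aged GW8510 and aged vehicle libraries Nr1d2 alone of the 7 was higher without overlap, where 3.89% of genes tested were. In TPM Nr1d2 overlapped between aged GW8510 and aged vehicle libraries, and Bhlhe40 between aged GW8510 and young vehicle libraries. Hlf was higher without overlap in TPM for aged vehicle over young vehicle. In CPM none of the 7 was lower without overlap in any comparison, where 12.8% of genes tested were for aged GW8510 over young vehicle, 13.5% for aged vehicle over young vehicle and 3.33% for aged GW8510 over aged vehicle. The median log2 fold change of the 7 was 0.64, 0.53 and 0.26 in aged GW8510 over young vehicle, aged vehicle over young vehicle and aged GW8510 over aged vehicle, and that of all genes tested was 0.01 in each. In the authors' deposited table Dbp, Hlf and Nr1d2 were marked as significant for aged GW8510 over young vehicle, and Dbp and Nr1d2 for aged vehicle over young vehicle. The authors' deposited table marked 729 and 653 of its 55536 genes (1.31% and 1.18%) in these comparisons, and 6 for aged GW8510 over aged vehicle, none of them among the 7. Of those 55536 genes 29661 had no count in any library, so these shares are not comparable with those over the 14384 genes tested. The authors' deposited table left Tef and Bhlhe40 unmarked for aged GW8510 over young vehicle at adjusted p-values of 0.000777 and 0.00959, and Tef unmarked for aged vehicle over young vehicle at 0.0455.

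The calls of Dbp and Nr1d2 depended on which libraries were in the fit. For aged vehicle over young vehicle, Dbp passed in 3 of the 9 edgeR fits that left out a library, those without aged vehicle 4, aged GW8510 1 or aged GW8510 4, and Nr1d2 passed in 5. For aged GW8510 over young vehicle, Dbp passed in 4 of the 9 and Nr1d2 in 6. Over these fits the fold change of Dbp was 3.90 to 4.15 on the log2 scale for aged GW8510 over young vehicle and 2.94 to 3.81 for aged vehicle over young vehicle. For Nr1d2 the same ranges were 1.20 to 1.48 and 0.94 to 1.23. Hlf passed in 1 of the 9 fits in each of these comparisons, the fit without aged vehicle 4, and Tef passed in that fit alone for aged GW8510 over young vehicle.

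**Figure D3:**
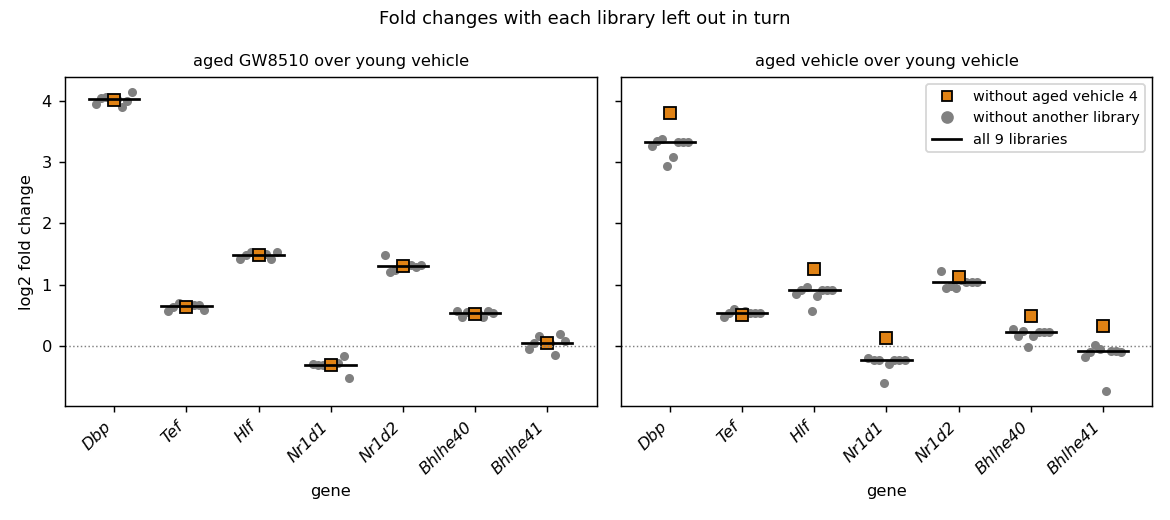
Log2 fold change (vertical axis) of each gene (horizontal axis) with all 9 libraries (black bar), with aged vehicle library 4 left out (orange square) and with each other library left out (grey points). Leaving out aged vehicle library 4 raises the aged vehicle over young vehicle value of Dbp to 3.81 and of Hlf to 1.26, and moves those of Nr1d1 and Bhlhe41 above 0.

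Aged vehicle library 4 stood apart from the other libraries for most of these genes. In CPM it held the lowest level of all 9 libraries for 4 of the 7 (Hlf, Nr1d1, Bhlhe40 and Bhlhe41), where 24.2% of all genes tested had their lowest level there. In CPM it was also the lowest of the aged vehicle libraries for 6 of the 7, where 40.8% of genes tested were. In TPM its Hlf level, 1.22, lay above the young libraries (1.01 to 1.11). For Nr1d2 aged vehicle library 3 was the lowest of its group in TPM, at 24.7 against 27.9 in library 4. The SD of log2 CPM over the aged vehicle libraries was 1.53 for Dbp and 1.25 for Bhlhe41, larger than in 97.6% and 95.7% of genes tested, against 0.08 for Tef and 0.17 for Nr1d2. In aged vehicle library 4 the activator gene Arntl was at 10.1 TPM, above the 3.62 and 4.68 TPM of the other aged vehicle libraries and below the 15.3 to 18.9 TPM of the young. The library also stood apart over the most variable genes, at 41.2 on the second principal component where the other 8 lay between -18.2 and 12.7. On the first component it lay at 45.8, the other aged libraries at 2.52 to 25.6 and the young ones at -41.7 to -36.6.

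Levels per length, in the TPM that the authors deposited, put the 7 genes in a different order in the aged and young groups. In aged GW8510 muscle Dbp was the most abundant at 109.9 ± 15.7 TPM (SD, n = 3), followed by Tef at 66.4 ± 7.63, Bhlhe40 at 49.2 ± 3.79, Nr1d1 at 46.3 ± 14.6 and Nr1d2 at 30.8 ± 2.01 TPM. Bhlhe41 stood at 9.23 ± 2.14 and Hlf at 2.66 ± 0.261 TPM. Among neighbours in that order only Bhlhe40 and Nr1d1 overlapped. In aged vehicle muscle Dbp averaged 74.9 ± 50.3, Tef 68.9 ± 8.78, Nr1d1 53.8 ± 27.2, Bhlhe40 43.5 ± 14.1 and Nr1d2 28.2 ± 3.67 TPM, and each of these overlapped its neighbours. Bhlhe41 and Hlf followed there at 9.05 ± 5.94 and 1.96 ± 0.750 TPM, without overlap. In young vehicle muscle Nr1d1 led at 66.0 ± 7.18 TPM, then Tef at 52.4 ± 3.64, Bhlhe40 at 40.2 ± 6.95, Nr1d2 at 14.3 ± 4.27, Bhlhe41 at 10.8 ± 0.594, Dbp at 10.2 ± 0.376 and Hlf at 1.06 ± 0.0503 TPM. The neighbours Bhlhe41 and Dbp overlapped there, and the others did not.

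Ratios of a pair of genes within a library do not depend on how libraries are scaled. Dbp over Nr1d1 was 2.97, 3.15 and 1.54 in aged GW8510, 1.41, 1.70 and 0.687 in aged vehicle, and 0.143, 0.159 and 0.164 in young vehicle libraries, so that aged and young did not overlap. Nr1d1 over Nr1d2 was 1.44, 1.15 and 1.89 in aged GW8510, 2.51, 2.23 and 0.935 in aged vehicle, and 3.85, 5.29 and 5.11 in young vehicle libraries, again without overlap between ages. Dbp over Tef was 1.87, 1.83 and 1.31 in aged GW8510 libraries and 1.53, 1.59 and 0.242 in aged vehicle libraries, against 0.206, 0.202 and 0.178 in young vehicle libraries. Bhlhe40 over Bhlhe41 overlapped between aged vehicle (6.55, 2.88 and 9.11) and young vehicle (4.36, 3.39 and 3.40) libraries. In aged GW8510 libraries it was 4.67, 6.56 and 5.21, above all of the young.

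**Figure D4:**
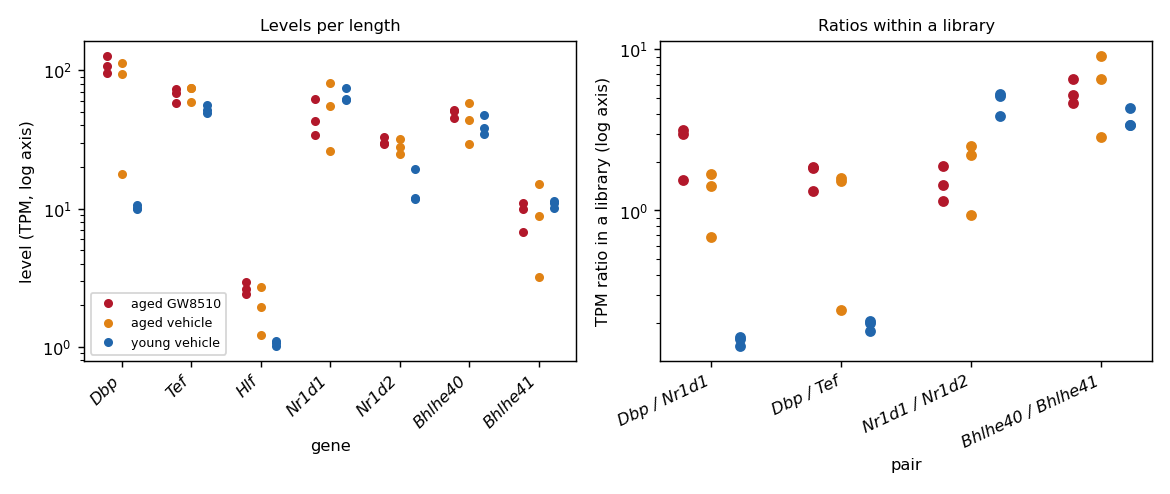
Left, level per length of each gene in each library (TPM, log axis), and right, ratios of TPM between pairs of genes within a library (log axis), with points coloured by group. Dbp is near Bhlhe41 in young libraries and above the other 6 genes in each aged GW8510 library, and its ratio to Nr1d1 is 0.143 to 0.164 in young and 0.687 to 3.15 in aged libraries.

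Other clock genes were described from lists, by the number past the threshold. Of the 4 clock activators 1 fell in aged GW8510 over young vehicle muscle, Arntl, at 5.36 ± 2.33 and 38.7 ± 0.443 CPM (7.21-fold, edgeR adjusted p = 0.0154). In aged vehicle over young vehicle muscle 1 of the 4 fell, Npas2, a CLOCK relative, at 0.209 ± 0.0709 and 2.95 ± 0.712 CPM (edgeR adjusted p = 0.0405). Npas2 averaged 0.222 ± 0.223 CPM in aged GW8510 libraries, also below all young ones, and did not pass there (log2 fold change -3.70, edgeR adjusted p = 0.0543). Its aged level is close to the floor of 3 counts, 0.103 to 0.136 CPM, so the size of the difference is uncertain. Arntl stood at 14.1 ± 7.27 CPM in aged vehicle libraries and did not pass against the young (edgeR adjusted p = 0.0901). In aged GW8510 over aged vehicle muscle its libraries did not overlap, at 5.36 ± 2.33 and 14.1 ± 7.27 CPM, and it did not pass (log2 fold change -1.39, edgeR adjusted p = 0.934).

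Among the PER, CRY and CHRONO repressors, which close the main negative loop, 4 of 6 rose in aged GW8510 over young vehicle muscle: Per2, Per3, Cry2 and Ciart, the gene of CHRONO. Ciart averaged 11.0 ± 0.610 and 1.18 ± 0.271 CPM in these groups (9.29-fold, edgeR adjusted p = 0.0387) and Cry2 rose 1.83-fold. In aged vehicle over young vehicle muscle 2 of 6 rose, Per2 and Per3, and in aged GW8510 over aged vehicle muscle 0 of 6 passed. The median log2 fold changes of this list were 1.44, 1.26 and 0.18 in those comparisons, and those of the activators were -1.88, -1.03 and -0.28. Cry1, also on the repressor list, went the other way against young vehicle muscle, lower without overlap in CPM. Its log2 fold change was -0.43 for aged GW8510 and -0.58 for aged vehicle, and neither passed (edgeR adjusted p = 0.226 and 0.113). Neither direction had a call among 5 tested ROR and corepressor genes, where Rora had a log2 fold change of 1.05 in aged vehicle over young vehicle muscle (edgeR adjusted p = 0.0913).

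Genes known as targets of the REV-ERB and PAR bZIP factors were taken from lists, and targets of the DEC factors were not listed. Of 14 tested REV-ERB targets 1 fell in aged GW8510 over young vehicle muscle (Arntl), where 0.417% of genes tested were called lower. In aged vehicle over young vehicle muscle 1 of the 14 fell (Npas2), where 0.695% were. Arntl and Npas2 are also among the clock activators above. The medians of the 14 were -0.48 and -0.49, and 0 of 14 passed in aged GW8510 over aged vehicle muscle. Of 7 tested genes taken as PAR bZIP targets, mostly described in liver, 0 passed in any comparison. Of all genes tested 0.751%, 1.22% and 0% passed in aged GW8510 over young vehicle, aged vehicle over young vehicle and aged GW8510 over aged vehicle muscle. The PAR bZIP targets had median log2 fold changes of 0.74, 0.55 and 0.225 there, with 6, 5 and 5 of the 7 above 0, and all genes tested 0.01 in each. The ubiquitin protease gene Usp2, one of the PAR bZIP targets, averaged 166 ± 7.98 CPM in aged GW8510 and 95.7 ± 13.7 CPM in young vehicle libraries (log2 0.79, edgeR adjusted p = 0.0582). The glutathione transferase gene Gstt2, another, averaged 3.91 ± 1.98 CPM in aged GW8510 and 1.56 ± 0.241 CPM in young vehicle muscle (edgeR adjusted p = 0.118). The D-box repressor gene Nfil3, which opposes Dbp, Tef and Hlf, averaged 24.8 ± 11.9 CPM in aged vehicle muscle and 63.1 ± 16.3 CPM in young muscle, without overlap (log2 -1.35, edgeR adjusted p = 0.0799). Of 11 output genes that are rhythmic in muscle 1 rose, the titin-cap gene Tcap, at 3130.4 ± 666 CPM in aged GW8510 and 1345 ± 87.4 CPM in young vehicle libraries (2.33-fold, edgeR adjusted p = 0.0317). None of 6 tested kinase, ligase and protease genes that act on clock proteins passed in any comparison, and Usp2 is also among these.

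**Figure D5:**
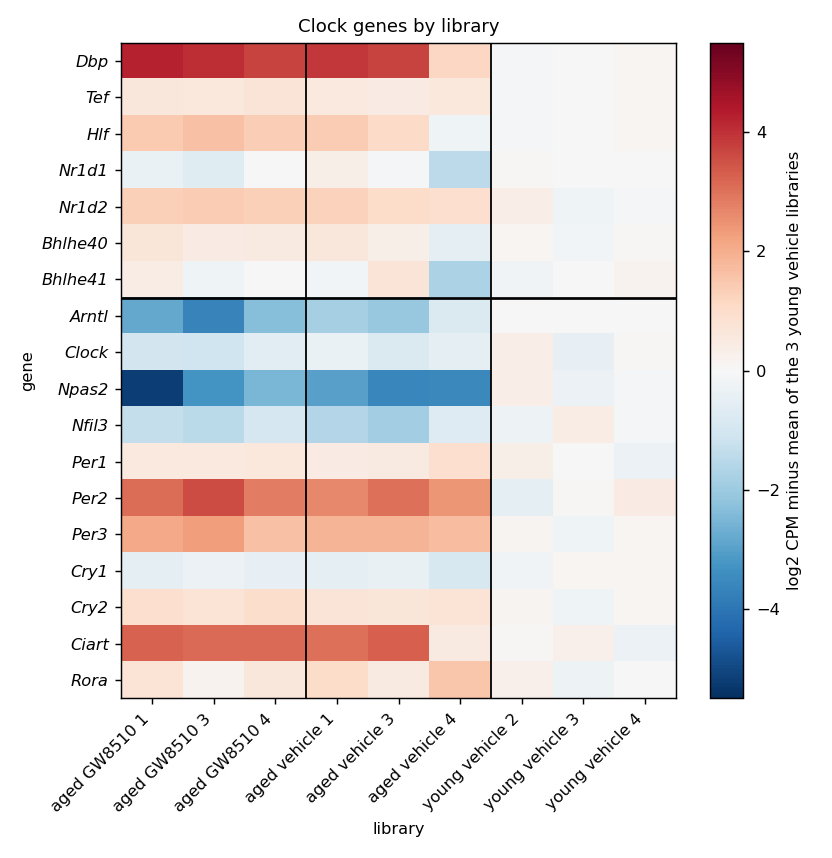
Log2 CPM (prior count 2) of the 7 genes, above the line, and of 11 other clock genes, below it, relative to the mean of the 3 young vehicle libraries (colour), in each library (columns). In aged GW8510 libraries and in aged vehicle libraries 1 and 3, Dbp and Ciart are at 3.01 or more and Arntl at -1.84 or less, while in aged vehicle library 4 they are at 1.14, 0.52 and -0.79.

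By Pearson correlation of log2 CPM over the 9 libraries, given as a description over libraries that share ages and include aged vehicle library 4, the genes most like Dbp were Ciart (r = 0.986), Insyn1 (0.980) and Rnf166 (0.962). The genes nearest to Nr1d2 were Tbc1d4 (0.965), Trpm4 (0.965) and Per3 (0.962), and those nearest to Hlf were Me3 (0.963), Fam19a5 (0.957) and Coq10b (0.957). For Tef they were Rpl30-ps9 (0.969), a pseudogene whose counts are uncertain because it resembles its parent gene, Tmem232 (0.955) and Itpripl1 (0.953). Nr1d1 was most like Plekha2 (0.977), Lsp1 (0.965) and Lmbr1 (0.958), Bhlhe40 most like Abhd10 (0.970), Hist1h2bh (0.966) and Zadh2 (0.964), and Bhlhe41 most like Ptx3 (0.964), Rab28 (0.963) and Stk16 (0.958).

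For 5 of the 7 genes the annotation holds a gene on the opposite strand that shares exonic bases, and whether counting used strand is not given in the sources used here. Reads from such a pair then cannot be told apart in the shared part. Dbp shares 539 bases, 18.0% of its exonic bases, with Sphk2, a sphingosine kinase gene, and Nr1d1 shares 263 bases (8.55%) with Thra, the thyroid hormone receptor gene. Bhlhe41 shares 1280 bases (19.0%) with Gm43909, and Tef and Bhlhe40 share 2.45% and 2.51% with the antisense genes Gm17597 and 0610040F04Rik. The deposited counts of Dbp, Nr1d1 and Bhlhe41 were fractional in all 9 libraries, those of Tef in 6, and those of Hlf, Nr1d2 and Bhlhe40 in none. Sphk2 measured 4.20, 3.74 and 4.04 TPM in aged GW8510, 5.36, 4.12 and 6.51 TPM in aged vehicle, and 7.55, 7.11 and 6.34 TPM in young vehicle libraries, with aged vehicle library 4 within the young range, and did not pass (edgeR adjusted p = 0.104 for aged GW8510 and 0.321 for aged vehicle over young vehicle). Thra measured 18.9, 16.5 and 23.5 TPM in aged GW8510, 20.5, 20.6 and 14.6 TPM in aged vehicle, and 42.7, 24.5 and 29.7 TPM in young vehicle libraries, lower in every aged library, and did not pass (edgeR adjusted p = 0.340 for aged GW8510 and 0.160 for aged vehicle over young vehicle). The part of shared reads in the levels of Dbp and Nr1d1 was not tested.

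Library totals ran from 21718965 to 27437970 counts. In bulk muscle, fewer cells of a type and less RNA per cell cannot be told apart. The 10 muscle fibre markers summed to between 92837 and 119907 TPM in aged GW8510, 103265 and 133393 TPM in aged vehicle, and 136331 and 162175 TPM in young vehicle libraries, so that these markers were abundant in every library. The 6 fibroblast markers summed to 110.3 to 269 TPM in aged GW8510, 59.4 to 214 TPM in aged vehicle and 347 to 773 TPM in young vehicle libraries, and the 4 Schwann cell markers to 13.7 to 75.6 TPM in aged GW8510, 12.0 to 62.3 TPM in aged vehicle and 77.6 to 120.2 TPM in young vehicle libraries. In TPM, aged and young libraries did not overlap in any of these 3 sums. Aged vehicle library 4 was the lowest for both fibroblast and Schwann cell markers. Summed as CPM after TMM scaling, only the fibroblast markers still separated the ages. Muscle fibre sums then reached 142207 CPM in aged GW8510 and 148126 CPM in aged vehicle libraries, and began at 137589 CPM in young vehicle libraries. Schwann cell sums reached 113 CPM in aged GW8510 and began at 110.5 CPM in young vehicle libraries. Of these lists Cd34 was called, lower in aged vehicle than in young vehicle muscle (edgeR adjusted p = 0.0470). The summed levels of the 5 endothelial markers were 57.7 to 88.3 TPM in aged GW8510, 56.2 to 67.5 TPM in aged vehicle and 85.2 to 107 TPM in young vehicle libraries, and those of the 5 macrophage, 4 smooth muscle, 6 fat cell and 4 red cell markers overlapped between groups. No marker was at 0 in every library. The part of these markers in the levels of the 7 genes was not tested.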

How the data were processed

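RNA sequencing of muscle in 9 libraries was deposited as 3 tables, 1 for each pair of groups. The tables hold expected counts per gene, per the file headers, not normalized, and the authors deposited TPM beside them. Of the count values 91.4% were whole within 1e-09, zeros included, and 75.1% of those above 0 were. No count was found in any library for 29661 of the 55536 genes. For each pair the authors deposited a fold ratio, its log2 and p-values with adjustment. The submitters' processing notes list the build GRCm38 and the tools RSEM, HISAT2, CASAVA, StringTie, edgeR and DESeq2, without saying what each did. The annotation and strand setting are not given in the sources used here. Coordinates and exons were taken from GENCODE M21.

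Counts were rounded to whole numbers, filtered with filterByExpr and scaled with TMM. A single model with a mean for each group covered all 9 libraries and was tested by quasi-likelihood in edgeR 4.0.16 under R 4.3.3. Two-sided p-values were adjusted by Benjamini and Hochberg's method across 14384 genes, and 0.05 was the threshold. A standard error is the absolute log2 fold change divided by the root of its F statistic, and 95% intervals use t with 9.88 degrees of freedom. Alternatives were DESeq2 1.42.0, limma-voom (limma 3.58.1), DESeq2 size factors, no filter, only the 6 libraries compared, the replicate number as a block, and each library left out. The test was tested on simulated data.

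The 7 genes, the lists and the tests were chosen with earlier results of these data known. All 7 genes are named, and of each list every gene past the threshold in any comparison or, failing that, those with the smallest p, except some that are not reported here. Likeness used genes with a mean of at least 1 CPM, without clone-style symbols.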

Additional observations from a re-analysis of the deposited data

How the results depend on the processing

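For aged vehicle over young vehicle, 175 genes passed; the count was 699 with no filter, 946 in DESeq2, 50 with only the 6 libraries compared, and 19 to 148 with a library left out. For aged GW8510 over young vehicle, 108 passed, against 553 with no filter, 820 in DESeq2, 469 with only the 6 libraries compared, and 25 to 594 with a library left out. For aged GW8510 over aged vehicle, 0 passed, against 5 with no filter, 8 in DESeq2, and 0 to 2 with a library left out. At an unadjusted p under 0.05 there were 2763, 2399 and 647 genes. The causes were not tested. Libraries with the same replicate number did not deviate together, with correlations of their deviations from group means between -0.21 and 0.14. With the replicate block 5, 8 and 0 genes passed in these comparisons, and neither Dbp (adjusted p = 0.280 and 0.149) nor Nr1d2 (0.142 and 0.0686) passed against the young. Dbp also missed the threshold for aged vehicle over young vehicle in limma-voom (0.0554) and with only the 6 libraries compared (0.0713), as did Nr1d2 with only those 6 (0.0713).

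Signs turned only for Nr1d1, Bhlhe40 and Bhlhe41, which had no call. With a library left out, the aged vehicle over young vehicle values spanned -0.61 to 0.13 for Nr1d1, -0.018 to 0.48 for Bhlhe40 and -0.75 to 0.33 for Bhlhe41. The aged GW8510 over aged vehicle values spanned -0.45 to 0.30 for Nr1d1 and -0.29 to 0.80 for Bhlhe41, and the aged GW8510 over young vehicle values of Bhlhe41 spanned -0.15 to 0.18. For aged GW8510 over aged vehicle Nr1d1 was also 0.069 in limma-voom and 0.020 with the replicate block, and for aged GW8510 over young vehicle Bhlhe41 was -0.18 with the replicate block. The lowest count of any of the 7 genes was 101, for Hlf in aged vehicle library 4.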
